A study of Mus musculus with 2 samples.

Results

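ErbB receptors are the cell-surface tyrosine kinases of the epidermal growth factor (EGF) family, and 10 genes of this system were examined in mDE6 cells: the receptors Egfr, Erbb2 and Erbb3, the ligands Areg, Ereg, Hbegf, Tgfa, Btc and Nrg1, and the receptor inhibitor Errfi1. They were taken by gene name from the 37074 names on the array and were carried by 23 probes, each printed at 1 spot. mDE6 is a cell line labelled as mouse odontogenic epithelium, the epithelium that takes part in tooth formation together with mesenchyme. The design holds 1 array of control cells and 1 array of cells given CHIR99021 for 6 h; CHIR99021 inhibits the kinase GSK-3 and so activates the β-catenin pathway. The deposited design text names genes lower or higher with CHIR99021 as the candidates sought, and the paper describes a search for lower genes. The sample labels give CHIR99021 at 5 mM and the control as "0/1%DMSO", whereas the study's methods give 5 μM and untreated cells. Neither condition has a second culture, so no difference below has a replicate check.

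ErbB ligands are mostly made as membrane proteins and are released by cutting enzymes. A bound ligand makes the receptors pair, the pair phosphorylates itself, and the signal runs on through adaptors to the kinases ERK and AKT. Areg, Ereg, Hbegf, Tgfa and Btc act through EGFR, and some of them also through ERBB4; the neuregulin gene Nrg1 acts through ERBB3 and ERBB4. ERBB2 has no known ligand and serves as partner of the others. In developing teeth, EGF-family signals are known to pass between epithelium and mesenchyme.

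The sequences of 5 probes within coding sequence are shown: those of the called Areg and Nrg1 probes, and, to show which parts of Nrg1 and Egfr were read, those of 3 probes that were not called. Each is 60 bases long and is read from the array's annotation, with mm9 positions from the same files. The first is the only Areg probe, at chr5:91570090-91570149 on the plus strand. The next 3 are Nrg1 probes on the minus strand of chromosome 8. Of these, A_55_P2874801 (chr8:33068986-33069045) lies in the part for the immunoglobulin-like domain and A_52_P369769 (chr8:32959791-32959850) in the part for the EGF-like domain that binds the receptor. A_55_P1985433 (chr8:32928500-32928559) covers the end of a reading frame. The last is an Egfr probe in the part for the extracellular domain, at chr11:16783545-16783604 on the plus strand. Capitals mark cysteine codons, which hold the folds of the EGF-like and receptor domains together, and the closing stop codon of A_55_P1985433, all in the single reading frame used for each probe.
Areg A_52_P482897: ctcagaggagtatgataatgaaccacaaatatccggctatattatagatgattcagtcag
Nrg1 A_55_P2874801: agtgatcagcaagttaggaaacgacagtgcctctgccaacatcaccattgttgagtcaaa
Nrg1 A_52_P369769: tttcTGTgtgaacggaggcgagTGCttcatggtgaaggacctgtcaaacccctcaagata
Nrg1 A_55_P1985433: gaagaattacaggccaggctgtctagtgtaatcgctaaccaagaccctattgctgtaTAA
Egfr A_52_P56471: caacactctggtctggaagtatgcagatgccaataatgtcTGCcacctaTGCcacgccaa

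Of the 10 genes, 7 were measured with CHIR99021 and without it: Egfr, Erbb2, Areg, Ereg, Hbegf, Nrg1 and Errfi1. Areg and Nrg1 were higher, Erbb2 was lower, and the other measured members lay between the limits. A probe was tested where its signal was well above background on at least 1 array, which held for 15 of the 23 probes, and all 15 were well above background on both arrays. Signals are given as the background-subtracted brightness of the spot, in arbitrary scanner units, and ratios are CHIR99021 over control after each array was divided by its 75th percentile (486.7 and 469.17). A probe was called lower where its ratio was 0.66 or less and its Z-score -2.0 or less, and higher where they were 1.5 or more and 2.0 or more. The Z-score is the distance of the log2 ratio from the mean of the 500 probes nearest in signal, in SDs. By these criteria 1 of the 7 measured genes was lower, while 2.72% of all 28066 tested probes were, and 2 of the 7 were higher, while 2.35% of all tested probes were. With 1 mean and SD over all tested probes in the Z-score, Erbb2 (-0.73) and Nrg1 (0.80) were not called. By the ratio alone 2 of the 15 probes, both of Erbb2, were at or under 0.66, against 9.68% of all tested probes, and 2 were at or above 1.5, against 8.24%. For a gene with several probes, the gene's value is that of the probe with the highest mean signal. The 7 genes had a median log2 ratio of 0.43, with 5 above 0 and 2 under it, and the median over all tested genes was 0.02.

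**Figure D1:**
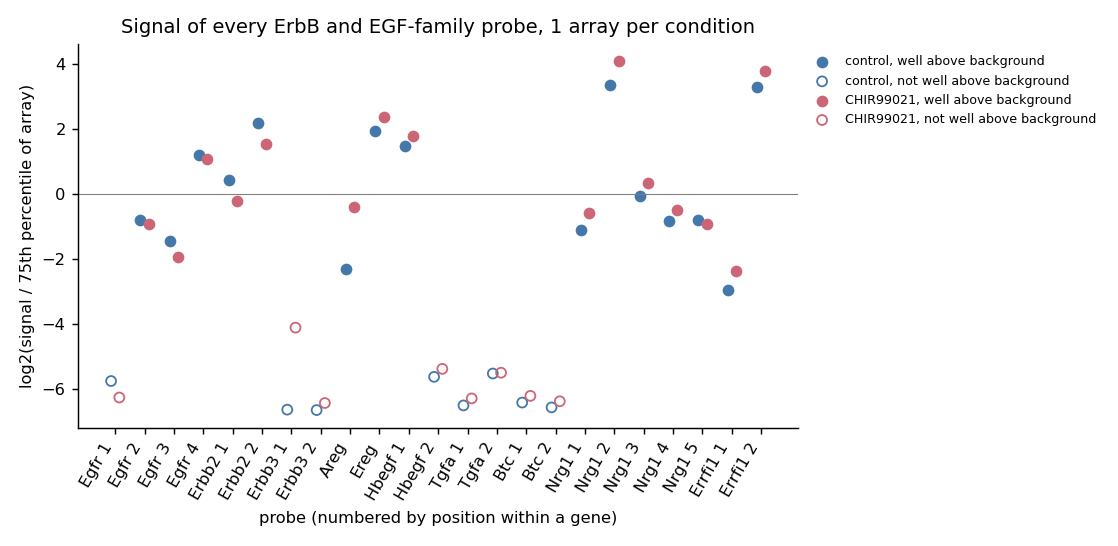
Signal of all 23 probes in control (blue) and CHIR99021-treated cells (red), as log2 of the signal over the array's 75th percentile; filled points were well above background and open points were not, and probes of a gene are numbered by position. The 8 probes drawn open on both arrays include every probe of Erbb3, Tgfa and Btc, and Areg has the widest gap between filled points; levels of different probes cannot be set against each other.

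The error that goes with these values is that of single spots. For the 15 tested probes, the error that Feature Extraction assigns to each spot came to 0.20 to 0.26 on the log2 ratio, and the median SD between repeat spots was 0.03 on the same scale for 264 probes printed repeatedly. None of the 15 had a spot as uneven as the limit of 0.261 (pixel SD over mean signal), their range being 0.102 to 0.248. Each condition was read at 1 place on a slide, so that the place and the treatment cannot be told apart. Changes of over 4-fold were found for 1277 probes, 92.9% of them past row 192 of the 384 rows, an area with 51.6% of the tested probes. That area held 7 of the 15 member probes, among them Areg (row 276) and both Erbb2 probes (rows 324 and 362). The part of this position in their ratios was not tested. Lef1, a β-catenin target, read 239 in control and 690.5 in treated cells, a ratio of 2.997 (Z-score 4.05), at a probe in row 294.

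The labelled cell type was set against its markers, since ErbB ligands and receptors differ between epithelium and mesenchyme. Of 12 epithelial markers, Cdh1, Epcam, Krt8, Krt19 and Esrp1, among them the defining adhesion and simple keratin genes, were not well above background on either array, and 5 were well above it on both. Trp63, a factor of basal epithelium, read 2306 and 2896 at its brightest probe. Another Trp63 probe, annotated to a cDNA clone, was well above background only in control cells and at least 2.83-fold lower with CHIR99021, at a spot of row 313 more uneven than the limit (0.462), and its other probes were not well above background. Krt5, a keratin of basal epithelium and the only epithelial marker that met the criteria, was not well above background in control cells and was at least 7.24-fold higher with CHIR99021, at a spot of row 379 whose pixels were more uneven than the limit. All 12 mesenchymal markers, Vim, Col1a1, Col1a2 and Fn1 among them, were well above background on both arrays, and none met the criteria in either direction. By the ratio alone, the mesenchymal factors Twist1 (1.55) and Msx1 (1.54) were at or above 1.5, as were 8.24% of all tested probes. By the full criteria, 2.35% of all tested probes were higher and 2.72% lower. The median log2 ratio was -0.01 over the 7 measured epithelial markers and -0.07 over the mesenchymal ones. As in any sample of whole cells, a shift in the mix of cells and a shift in RNA per cell cannot be told apart.

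Among the receptors, Erbb2 was lower with CHIR99021 at both of its probes. ERBB2 is the ligand-less partner that strengthens signalling of the other ErbB receptors. Probe A_55_P2809338 (chr11:98298394-98298453, plus strand) read 2236 in control cells and 1368 in treated cells, a ratio of 0.635 and a log2 ratio of -0.66 ± 0.20 (spot error), and its Z-score was -2.17. Probe A_52_P49250, which lies just upstream at chr11:98298103-98298162, read 663 and 403, a ratio of 0.629 and a log2 ratio of -0.67 ± 0.21. The probes gave nearly the same ratio, and both lie in the later rows. Only the first met the criteria, since the Z-score of the second was -1.76. The call of the first lay close to the limit: with the arrays scaled by their spike-in spots its log2 ratio was -0.60, just short of a ratio of 0.66, and Erbb2 was not called. The median log2 ratio of the neighbouring spots was -0.46 around the first probe and 0.08 around the second, over 3 spots well above background in each case. Within 3 rows and columns of the first probe, 4 spots were well above background on only 1 array and differed by more than 4-fold, and there were 0 such spots around the second.

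Egfr, the receptor for EGF, amphiregulin and the related ligands, met the criteria at none of its probes. Its probe with the highest signal, A_52_P106259, annotated to transcript variant 1, read 1122 in control and 987 in treated cells, a log2 ratio of -0.13 ± 0.20 (Z-score -0.55). The extracellular-domain probe shown above, annotated to variant 2, read 281 and 250, a log2 ratio of -0.12 ± 0.21. These differences were smaller than the spot error. The other variant 1 probe, A_52_P674338, read 180 and 124, a log2 ratio of -0.49 ± 0.22 (Z-score -0.93), in row 384 at the edge of the array. It lies between the other probes of the gene (chr11:16812181-16812240), and so the probes of Egfr gave different sizes of ratio with the same sign. The probe annotated to a RIKEN clone, A_52_P5855, stayed near background on both arrays (9.09 and 6.17).

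Erbb3, the receptor that binds neuregulin and recruits PI3-kinase, was not measurable. Its probe A_55_P2119897 read 4.90 and 5.49. The other, A_52_P432949, read 4.94 in control and 27.3 in treated cells but was not well above background on either, and its pixel SD over mean signal was 0.272 and 0.286, both above the limit for uneven spots. No ratio is given for it. Erbb4, the remaining receptor of the family and not one of the 10, read 931 and 919, a log2 ratio of 0.03.

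Among the ligands, Areg was far higher with CHIR99021, and it had the largest ratio of the 7 measured genes. Areg encodes amphiregulin, a ligand of EGFR made by many epithelia. Its probe, the sequence of which is given above, read 99.03 in control and 354 in treated cells. This was a 3.71-fold higher signal after scaling, 1.89 ± 0.22 on the log2 scale. Its Z-score was 3.73, in a range of signal where the SD of the log2 ratio was 0.50. The difference was several times its spot error. The spots were even (0.149 and 0.141), and the 3 neighbouring spots well above background had a median log2 ratio of 0.22, with 1 spot nearby that was well above background on only 1 array and differed by more than 4-fold. With 7 ways of scaling the arrays its log2 ratio lay between 1.84 and 1.95, and normexp background correction gave 1.38, still above both criteria. Areg is represented by this single probe, so no second probe checks it.

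Areg lies in a cluster of EGF-family ligand genes on chromosome 5, and of its neighbours there Ereg alone was measured, with a smaller ratio. Along the chromosome in mm9 the probes follow in the order Epgn, Ereg, Areg and Btc over 327 kb. Ereg, which encodes epiregulin, a ligand of EGFR and ERBB4, is 47.5 kb from Areg by probe position. It read 1866 in control and 2429 in treated cells, a ratio of 1.35 and a log2 ratio of 0.43 ± 0.20 (Z-score 1.08), which is above its spot error and short of the criteria. Btc (betacellulin) and Epgn (epigen), which are also EGFR ligands, were not well above background on either array, with signals of 5.19 to 6.39 at the Btc probes and 5.09 and 5.77 at the Epgn probe. Whether the ratios of Areg and Ereg differ between cultures could not be tested with 1 array per condition.

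**Figure D2:**
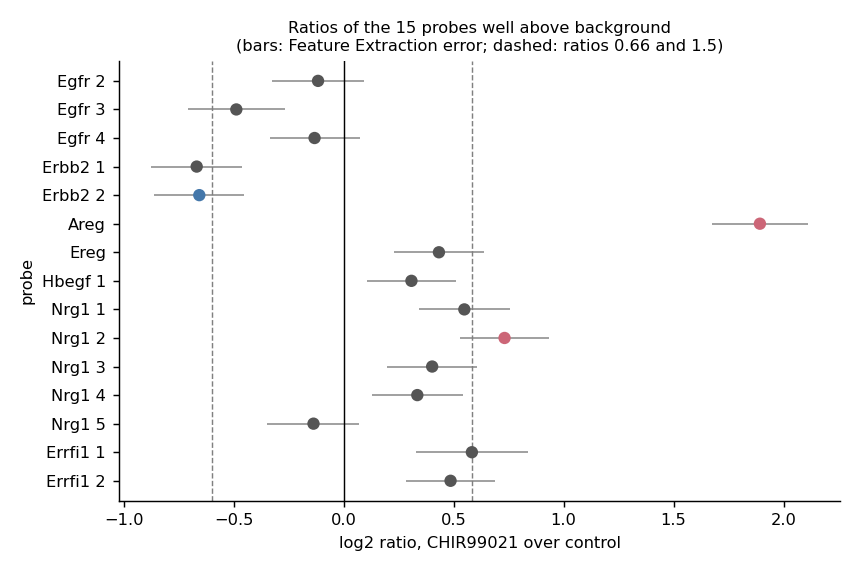
Log2 ratio, CHIR99021 over control, of the 15 probes well above background, with bars for the Feature Extraction error of the pair of spots; red points met the criteria for higher and the blue point those for lower, and dashed lines mark ratios of 0.66 and 1.5. Areg stands apart at 1.89, the 2 Erbb2 probes coincide at -0.67 and -0.66, and the Egfr probes lie between -0.49 and -0.12.

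Hbegf and Tgfa are the other EGFR ligands examined. Hbegf encodes heparin-binding EGF-like growth factor, which is also cut from the membrane. Its probe A_51_P181565 read 1360 in control and 1624 in treated cells, a ratio of 1.24 and a log2 ratio of 0.31 ± 0.20 (Z-score 0.77), short of the criteria. Its other probe was not well above background (9.94 and 11.4). Tgfa, transforming growth factor alpha, was not well above background at either probe, with signals of 10.67 and 10.46 at one and 5.41 and 6.05 at the other. The 8 member probes not measured read 4.90 to 27.3, and the lowest signal that counted as well above background was 23.7 for control cells and 26.3 for CHIR99021. For the genes without a measured probe, a level under this range would not have been detected.

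Nrg1, which encodes the neuregulins that bind ERBB3 and ERBB4, was higher at 4 of its 5 probes, and 1 of them met the criteria. Nrg1 is known to make many transcripts from several start sites. Probe A_55_P1985433, at the end of a reading frame, read 4963 in control and 7943 in treated cells, a ratio of 1.66 and a log2 ratio of 0.73 ± 0.20, and its Z-score was 2.15. Probe A_52_P158772, further 3′ (chr8:32925808-32925867), read 225 and 318, a log2 ratio of 0.55 ± 0.21. The EGF-like domain probe A_52_P369769 read 470 and 599, a log2 ratio of 0.40 ± 0.21. Each of these ratios was above its spot error. The immunoglobulin-like domain probe A_55_P2874801 read 273 and 332, a log2 ratio of 0.33 ± 0.21.

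The remaining Nrg1 probe was the exception. A_55_P2811400 (chr8:33994810-33994869) is the most upstream probe and read 284 in control and 248.6 in treated cells. Like A_55_P2874801 and A_52_P158772, it is annotated to a predicted transcript. The log2 ratio of A_55_P2811400 was -0.14 ± 0.21, smaller than its spot error. Its neighbouring spots well above background had a median log2 ratio of -0.38, and those around the other 4 probes had medians of 0.01 to 0.15. Around A_52_P158772 there were also 5 spots that were well above background on only 1 array and differed by more than 4-fold, and around each of the other Nrg1 probes there were 0. The other 4 probes lie within 143 kb at the 3′ side, and all 5 span 1069 kb. Over the 5 probes the mean log2 ratio was 0.38 with an SD of 0.32, which describes probes of 1 gene on the same arrays and not replicate cultures. By that mean Nrg1 did not meet the criteria (Z-score 1.103), and so its call rests on the probe with the highest signal.

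**Figure D3:**
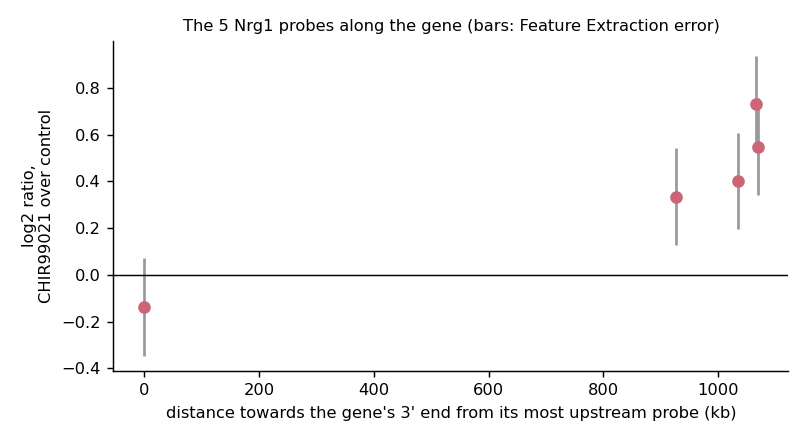
Log2 ratio of the 5 Nrg1 probes against their distance in kb from the most upstream probe, with bars for the Feature Extraction error. The 4 probes toward the 3′ end lie between 0.33 and 0.73, and the most upstream probe lies at -0.14.

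Errfi1, the inhibitor, encodes a cytoplasmic protein (MIG6) that binds ErbB kinases and switches them off, and it is itself known to be induced by ErbB signalling. Probe A_55_P2016105 read 4771 in control and 6442 in treated cells, a ratio of 1.40 and a log2 ratio of 0.49 ± 0.20 (Z-score 1.33). Probe A_55_P2738689, annotated to a cDNA clone and lying upstream, read 63.0 and 91.0, a log2 ratio of 0.58 ± 0.26 (Z-score 0.69). Both were higher by more than the spot error and neither met the criteria.

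**Figure D4:**
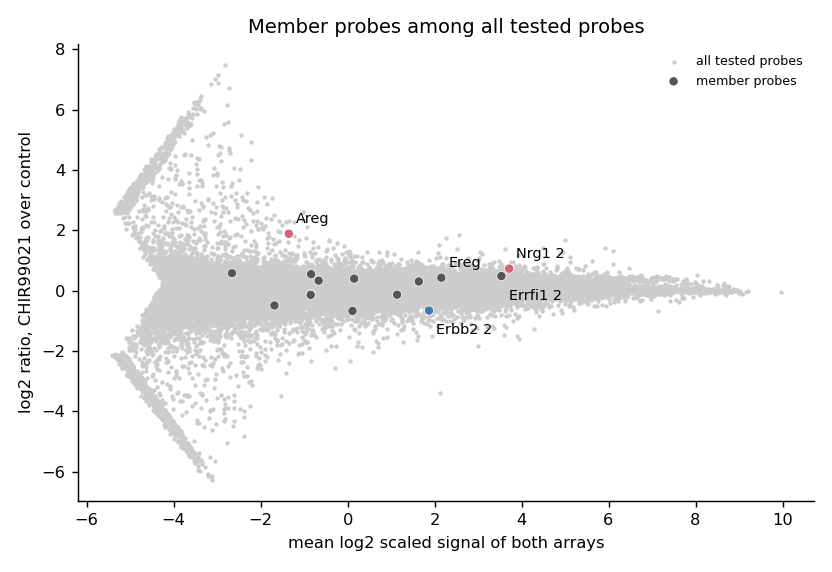
Log2 ratio against mean log2 scaled signal of both arrays for the 28066 tested probes (grey) and the 15 member probes (red, higher; blue, lower; dark grey, neither), with selected probes named. The Areg probe lies at the upper edge of the cloud at its signal, with a Z-score of 3.73, and the called Erbb2 and Nrg1 probes lie near the lower and upper edges at theirs.

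Promoter windows ran from 250 bases before to 50 after the start site, from a set of RefSeq starts (GRCm38.p6). The set used here held 7 windows for 6 of the 10 genes: Areg, Btc, Tgfa, Egfr, Erbb2 and, with 2 windows, Errfi1. It had no entry for Ereg, Hbegf, Nrg1 and Erbb3, so their promoters were not searched. Both strands were searched for CTTTGAT, the letters that TCF/LEF factors of the β-catenin pathway bind; for TGACGTCA, the cyclic AMP response element (CRE); and for TGACTCA, the AP-1 element. None of these overlaps another as written. CTTTGAT was in none of the 7 windows and in 3.73% of all 32851 windows, and TGACTCA was in none of them and in 5.20% of all windows. TGACGTCA was in the windows of Areg and Errfi1 and in 1.79% of all windows. The Areg promoter is shown because Areg had the largest ratio, as the 250 bases before its start (chr5:91139349-91139598, plus strand, GRCm38.p6), and Errfi1 as 68 bases around its CRE (chr4:150854989-150855056, plus strand, GRCm38.p6), with the CRE in capitals.
Areg promoter: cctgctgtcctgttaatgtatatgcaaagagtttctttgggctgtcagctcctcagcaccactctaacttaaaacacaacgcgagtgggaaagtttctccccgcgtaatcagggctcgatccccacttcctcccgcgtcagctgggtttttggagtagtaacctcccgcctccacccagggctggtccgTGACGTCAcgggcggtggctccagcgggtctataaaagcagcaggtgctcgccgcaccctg
Errfi1 promoter, part: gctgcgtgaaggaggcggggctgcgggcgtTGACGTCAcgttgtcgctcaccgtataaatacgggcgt

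The CRE lies 61 to 54 bases before the start of Areg and 51 to 44 bases before that of Errfi1. A match of letters is a description of the sequence, and no binding was measured on these arrays.

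The other genes of the ErbB system were counted in 5 lists with 69 genes in all, of which 62 were measured. Of the 62, 1 was lower by the criteria, where 2.72% of all tested probes were, and 5 were higher, where 2.35% of all tested probes were. Their median log2 ratio was 0.04, against 0.02 over all tested genes. Of the 6 called genes, 4 (Rnf41, Dusp4, Ier3 and Dusp6) have their probe past row 192, in rows 195, 239, 266 and 371, and the part of this position in their ratios was not tested. Of the other receptor and ligands, Erbb4 and Egf were measured and neither was called, Egf reading 45.7 and 35.9, while Epgn, Nrg2, Nrg3 and Nrg4 were not well above background. The 6 genes that help release ligands from the membrane, among them Adam17 and Adam10, were all measured, and none was called (log2 ratios -0.21 to 0.16). Nor was any of the 23 measured adaptor and kinase genes called, Grb2, Shc1 and Akt1 among them, with log2 ratios of -0.35 to 0.43. The median log2 ratio was -0.13 over the receptor and ligands, -0.09 over the shedding genes and 0.02 over the adaptors.

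Of 16 genes for receptor turnover and inhibition, 15 were measured, and Rnf41 was the only one called at its brightest probe. Over all tested probes, 2.35% were higher and 2.72% lower. Rnf41 encodes a ubiquitin ligase (NRDP1) that is known to direct the breakdown of ERBB3. It read 369.9 in control and 720.5 in treated cells, a ratio of 2.02 (Z-score 2.77). Its 3 probes gave log2 ratios of 0.56 to 1.01. Dimmer probes of other genes in the list reached log2 ratios of 1.36 for Cblb, 1.18 for Eps15, -1.38 for Ptprk and -0.70 for Lrig3. The list's median log2 ratio was 0.13, and Lrig1, an inhibitor that promotes the breakdown of ErbB receptors, had a log2 ratio of 0.37.

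The genes known to rise with ERK output held the other calls, and these ran in both directions. Of 17 genes, 16 were measured, and at the brightest probe of each, 4 were higher and 1 was lower, with a median log2 ratio of 0.12. Over all tested probes, dim ones included, 2.35% were higher and 2.72% lower. The lists were chosen with earlier results of these data known, so these shares give no independent comparison. A dimmer probe of Spred2 had a log2 ratio of 1.09. Fosl1, a subunit of the AP-1 factor, read 1712 and 4315, a ratio of 2.61. Dusp4, a phosphatase that removes phosphate from ERK in the nucleus, read 183 and 483, a ratio of 2.74. Ier3, an early response gene, read 4926 and 10718, a ratio of 2.26, and Spry1, an inhibitor of receptor tyrosine kinase signalling, read 334 and 569, a ratio of 1.77. Their Z-scores were 2.23 to 4.32. Dusp6, the phosphatase that acts on ERK in the cytoplasm, went the other way, with 1217 in control and 564 in treated cells, a ratio of 0.481 (Z-score -3.04). Fos, another AP-1 subunit, had a ratio of 0.622 and missed the Z-score criterion (-1.61). Etv4, Etv5 and Egr1, which are also common readouts of ERK, had log2 ratios of 0.15, -0.23 and -0.12. Several of these genes also respond to other pathways.

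**Figure D5:**
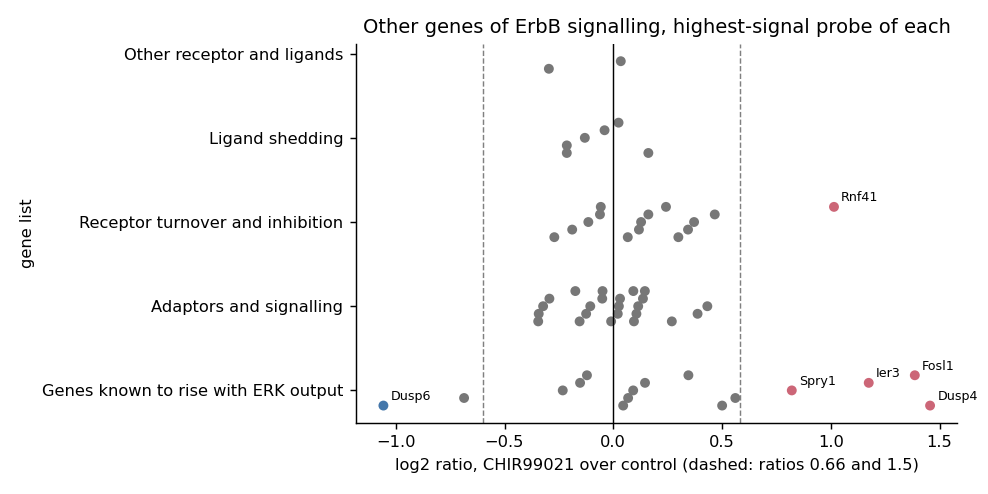
Log2 ratio, CHIR99021 over control, of the measured genes of each list, 1 point per gene at its probe with the highest mean signal; red points met the criteria for higher, the blue point those for lower, and dashed lines mark ratios of 0.66 and 1.5. The called genes are Rnf41 and, in the list of ERK output, Dusp4, Fosl1, Ier3, Spry1 and Dusp6, and the 2 lists of shedding genes and adaptors lie between -0.35 and 0.43.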

How the data were processed

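RNA of mDE6 cells was labelled with Cy3 and hybridised by the authors to 1 array per condition. The deposited intensity of a spot is the background-subtracted signal of Feature Extraction (10.7.1.1 in the file headers, 9.5.1.1 in the submitters' processing notes), not normalized between arrays. The headers name a mouse design and build mm9, whereas the study's methods name a human array. The authors also deposited a table of normalized intensity values. Its columns hold nearly the same set of values, as quantile normalization would leave them; the method is not given in the sources used here.

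Control spots and outlier flags were left out, spots of a probe were averaged, log2 signals were set relative to the array's 75th percentile, and a probe was tested if either array had it well above background. The limits on ratio and Z-score are those of the study's methods for lower genes. The methods print the Z-score limit without a sign and do not define the score. The limit was read as negative for lower probes and mirrored for higher ones, and the window of the 500 nearest probes was chosen here. No test was possible with 1 array per condition, so calls are not p-values. Python 3.11.15, numpy 2.4.6, pandas 2.3.3, matplotlib 3.10.9, R 4.3.3 and limma 3.58.1 were used, and the calling was tested on simulated data.

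All 10 members were named with every probe, and of other genes those of the lists that met the criteria or the ratio alone, with a few uncalled examples named after their values were seen. The members, lists, markers and Lef1 were chosen with earlier results of these data known. Axin2 and Nkd1, also looked at as a check of the treatment, were well above background only with CHIR99021, at least 1.66-fold and 25.8-fold higher, in rows 312 and 368. Axin2 missed the Z-score criterion (0.91), and the Nkd1 spot was more uneven (0.401) than the limit. Alternatives changed the scaling, background correction, filter, floor, Z-score, choice of probe and array area.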

Additional observations from a re-analysis of the deposited data

How the results depend on the processing

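No paired analysis was possible because control and CHIR99021 have 1 array each. The main values were 1 member lower and 2 higher. The lower count became 0 with spike-in scaling (Erbb2 at -0.60 missed the ratio), with 1 mean and SD over all probes in place of the nearest 500 (Erbb2, Z-score -0.73), at the probe with the lowest ratio (Erbb2, Z-score -1.76) and in the earlier rows only, which hold no Erbb2 probe. The higher count became 1 with 1 mean and SD over all probes (Nrg1, Z-score 0.80), with the mean over probes (Nrg1 at 0.38), at the probe with the lowest ratio, where Nrg1 reversed to -0.14, and in the earlier rows only, which hold no Areg probe. The log2 ratio of Areg was 1.38 to 1.95 over 17 alternatives. Many of these could not change it: the filter, floor and Z-score do not alter the ratio of a probe well above background on both arrays. A choice of probe cannot alter it either, since Areg has a single probe. The log2 ratios of the other measured members kept their sign in every alternative that gave a value, except for Nrg1 as stated. Over all tested probes, 763 were lower and 659 higher, against 2717 and 2312 by the ratio alone, 1369 and 1265 with median and MAD, and 353 and 260 in the earlier rows, where fewer probes were tested. With no filter, 917 were lower and 1031 higher. Dim probes are a further limit: 3 of the 10 members had no signal well above background, and nothing can be said of their response.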
